A study of Mus musculus with 6 samples.

Results

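The chaperonin CCT, also called TRiC, was examined through the transcripts of its 8 subunit genes, Tcp1 (which encodes CCT1), Cct2, Cct3, Cct4, Cct5, Cct6a, Cct7 and Cct8, in cardiac fibroblasts of Acta2 knockout (KO) and wild-type (WT) mice. The 8 genes were chosen by their symbols, and all 8 were present among the 25746 genes of the deposited expression table. CCT is a cytosolic machine built of stacked rings in which each ring holds 1 copy of every subunit. It encloses newly made chains that cannot fold alone and closes over them when ATP is hydrolysed. Actins and tubulins are its best-known clients. Prefoldin passes unfolded actin and tubulin chains to it, and phosducin-like proteins bind it as cofactors. In activated cardiac fibroblasts, the product of Acta2 (smooth muscle α-actin) is itself such a client, so the subunits are set here beside the actin transcripts.

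RNA-seq was available for 2 KO and 2 WT libraries, and ATAC-seq, which marks open chromatin by transposase insertion, for 1 KO and 1 WT library. The labels describe fibroblasts from the hearts of WT and Acta2fl/fl mice, both given Adeno-Cre (an adenovirus that carries the Cre recombinase) and then TGFβ, a cytokine that turns fibroblasts into contractile myofibroblasts, over 2 days. They also describe mice with a tamoxifen-dependent MerCreMer given 75 mg/kg tamoxifen daily on 5 days, beginning at 6 weeks, with infarction at 9 weeks, and eGFP+ cells of the Tcf21 lineage sorted from these hearts. The labels do not settle which route each library took, and the promoter that drives MerCreMer is not given in the sources used here. On the first route both genotypes carried Cre virus and TGFβ, and on the second both had tamoxifen and infarction. Whether replicates of a genotype were separate cultures or animals is not stated, and the p-values then measure the spread between these libraries, which may be technical. In bulk RNA, fewer cells of a type and less RNA per cell cannot be told apart.

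The RNA libraries held between 8429166 and 11370115 estimated counts, and levels are given as library-size normalised counts (CPM) with TMM scaling. Of 12192 genes tested with edgeR's quasi-likelihood test, 4352 (35.7%) passed an adjusted p of 0.05, with 18.3% of tested genes higher and 17.4% lower in KO. Acta2, the targeted gene, stood at 256 and 265 CPM in KO against 2186 and 2199.9 CPM in WT, which matched the genotype labels. The fibroblast label was checked against 10 markers. Each was detected, but 9 of the 10 fell and none rose. The 10 summed to 3545 to 3546 CPM in KO and 4875 to 4991 CPM in WT. Col1a1, the collagen gene, had means of 1146 CPM in KO and 1275 CPM in WT, a fall of 0.15 on the log2 scale. The falls were largest for Lum, Dcn and Tcf21, at 1.06, 0.83 and 0.82. Tcf21, the gene that names the sorted lineage, had means of 6.23 CPM in KO and 10.99 CPM in WT. Macrophage markers rose in 5 of 8 tested cases of 12 listed, with sums of 178 in both KO libraries and 99.5 to 103 CPM in WT, but Fcgr1 was at 0 in every library and Cd163, Mrc1 and Ptprc had at most 11 estimated counts. Endothelial markers rose in 9 and fell in 1 of 11 tested cases of 12 listed, with sums of 505 to 516 CPM in KO and 379 to 403 CPM in WT. Most of each sum came from Eng, with means of 355 CPM in KO and 275 CPM in WT. Emcn, the next highest in KO, had a mean of 33.6 CPM there, and Tie1 and Vwf had 2.73 and 2.22 CPM. Mural cell markers rose in 3 and fell in 3 of 7 tested cases of 9 listed (88.8 to 95.7 CPM in KO, 60.6 to 62.3 in WT). Myh11, Lmod1 and Mcam rose by 2.99, 2.04 and 1.10 on the log2 scale, while Steap4, Rgs5 and Cspg4 fell by 1.15, 0.60 and 0.58. Kcnj8 was at 0 in KO and had at most 4 estimated counts in WT. Mesothelial markers rose in 1 and fell in 4 of 8 (302 to 313 CPM in KO, 301 to 314 in WT). Of 8 cardiomyocyte markers 1, Tnnt2, was tested and fell (sums over the list of 4.84 to 5.96 CPM in KO and 6.96 to 8.30 in WT), while Nppa and Pln were at 0 in every library. The part of these marker differences in the results on CCT was not tested.

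Within the complex, the transcript of a single subunit, Cct4, was far lower in KO, while the other 7 differed between genotypes by at most 0.13 on the log2 scale. Cct4 encodes CCT4, one of the ATP-binding subunits of the ring. It stood at 261 and 265 CPM in the KO libraries and at 491 and 506 CPM in the WT libraries. The 2 genotypes were therefore far apart, and neither replicate pair spread by more than a small part of the gap. The mean of the KO libraries was 263 ± 2.56 CPM and that of the WT libraries 499 ± 10.7 CPM (SD, n = 2), so that KO held 52.7% of the WT level. The log2 fold change was -0.92 (SE 0.038, 95% interval -1.002 to -0.85, adjusted p = 2.25e-17 by edgeR's quasi-likelihood test with Benjamini-Hochberg adjustment). Behind these values stood 2978 and 2899 estimated counts in KO against 4096 and 4578 in WT, although the WT libraries were the smaller ones. A fall this large was uncommon at this level of expression. Of 1081 tested genes with a WT mean of at least 200 CPM, 11 (1.02%) had a log2 fold change at or below that of Cct4, and of all tested genes 331 (2.71%) did. The call of Cct4 held in each of 13 other analyses, with log2 fold changes between -0.95 and -0.90. Its adjusted p was closest to the threshold, at 0.048, with the spread set to a BCV (biological coefficient of variation) of 0.2, in place of the fitted common value of 0.0311.

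**Figure D1:**
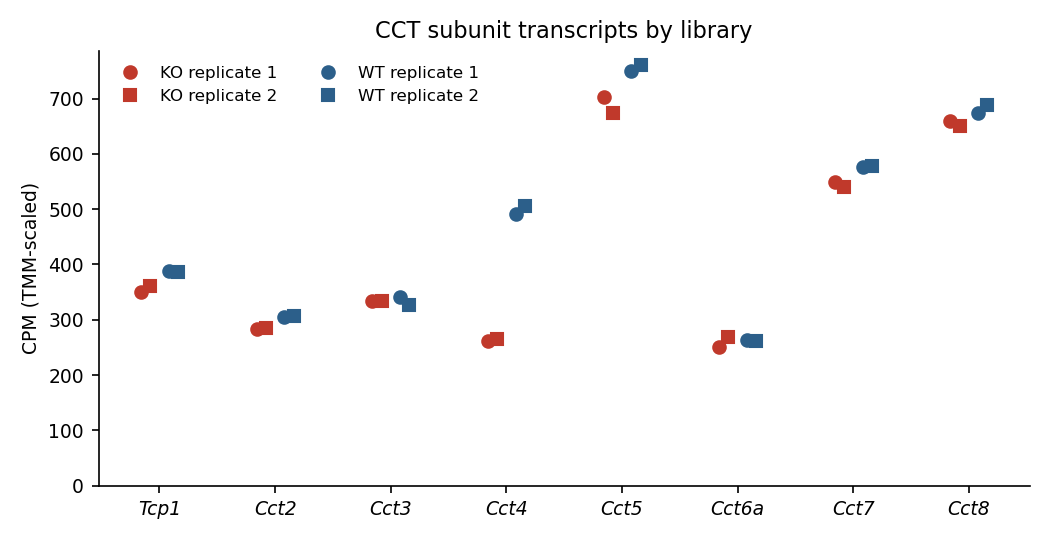
CPM (TMM-scaled, linear axis from 0) of each CCT subunit in the 4 RNA-seq libraries, with KO in red and WT in blue and the replicate given by the symbol. The Cct4 points of KO (261 and 265 CPM) lie well below those of WT (491 and 506 CPM), while the points of the other subunits lie close together.

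Cct5, Tcp1 and Cct2 also fell, by small amounts. Cct5, the subunit with the highest level per length, stood at 704 and 673 CPM in KO against 749.9 and 761 CPM in WT (log2 fold change -0.13, SE 0.032, adjusted p = 0.00156 by edgeR). Tcp1, the subunit that gave the complex its first name, stood at 349.7 and 361 CPM in KO against 389 and 386 CPM in WT (-0.12, SE 0.038, adjusted p = 0.0114 by edgeR). Cct2 stood at 284 and 285 CPM in KO against 306 and 307 CPM in WT (-0.11, SE 0.040, adjusted p = 0.0388 by edgeR). In each of these 3 genes both KO libraries were below both WT libraries, and KO held 91.1%, 91.8% and 93.0% of the WT level in this order. The call of Cct2 was lost with DESeq2, with upper quartile scaling, with scaling by library size alone, without a filter on low counts and without any 1 of the 4 libraries. That of Tcp1 was lost without KO replicate 1 (adjusted p = 0.10 by edgeR) and without WT replicate 1 (0.052), and those of Cct5, Tcp1 and Cct2 with an assumed BCV of 0.1 or 0.2.

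The remaining 4 subunits did not pass the test. Cct7 missed the threshold narrowly, at 549 and 540.4 CPM in KO against 576 and 577 CPM in WT (log2 fold change -0.08, SE 0.033, adjusted p = 0.0519 by edgeR), without overlap of the genotypes. It passed with limma-voom (adjusted p = 0.035), with RLE size factors (0.040) and with the replicate block (0.019). Cct8 stood at 660.3 and 649.5 CPM in KO against 673 and 688 CPM in WT, again without overlap (-0.06, SE 0.031, adjusted p = 0.171 by edgeR). Cct3 and Cct6a were the 2 members whose genotypes overlapped. Cct3 had 333 and 334 CPM in KO against 341 and 327 CPM in WT, with a 95% interval of -0.08 to 0.08 for its log2 fold change of -0.00038. Cct6a had 250.2 and 269 CPM in KO against 263 and 261 CPM in WT, with an interval of -0.10 to 0.07 for its log2 fold change of -0.02. With library size as the only scaling the values of these 2 genes turned to 0.021 and 0.0062, so no direction is given for them.

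Counted together, 4 of 8 subunits fell and none rose in edgeR (none also at an unadjusted p, with DESeq2 or with limma-voom, as for each list given here with no gene in a direction), against 17.4% of tested genes that fell and 18.3% that rose. Genes as strongly expressed as these were called more often, however. Among the 1081 tested genes with a WT mean of at least 200 CPM, a group that holds all 8 subunits, 62.4% changed, 41.9% falling and 20.5% rising. A count of 4 in 8 is near that share. Likewise 6 of 8 subunits had genotypes that did not overlap, against 67.1% of all tested genes. The median log2 fold change was -0.09 over the 8 subunits and -0.08 over the 7 without Cct4, against 0.0014 over all tested genes. The 95% intervals of those 7 reached from -0.20 at the lowest to 0.08 at the highest, and each lay wholly above the interval of Cct4. The difference between Cct4 and the other subunits was not tested beyond these intervals.

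**Figure D2:**
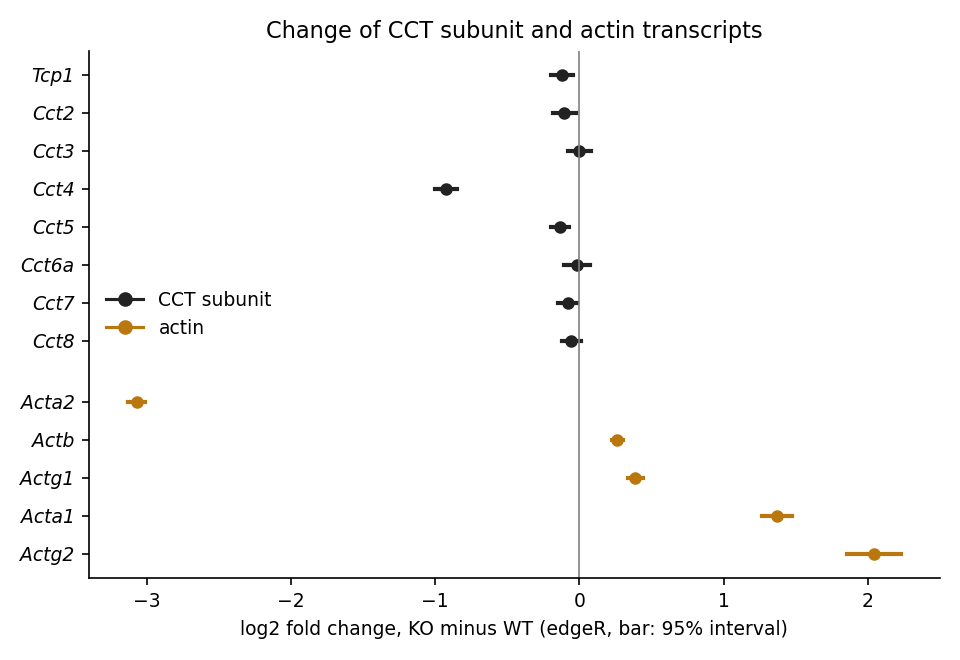
Log2 fold change (KO minus WT, edgeR) of the 8 CCT subunits (black) and 5 tested actins (orange), with 95% intervals as bars. The interval of Cct4 (-1.002 to -0.85) is separate from those of the other 7 subunits, and among the actins Acta2 lies left of 0 and the other 4 right of it.

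Since each ring takes every subunit in equal number, the levels were also compared between subunits, as CPM per kilobase of the longest RefSeq mRNA. As a share of the summed subunit CPM per kilobase, Cct4 made up 14.2% and 14.5% in the WT libraries and 8.47% and 8.63% in the KO libraries. The other subunits made up correspondingly more of the sum in KO. In WT the shares ran from Cct5 (22.6%), Cct8 (16.1%), Cct4 (14.4%) and Cct7 (13.3%) to Cct3 (9.65%), Tcp1 (8.77%), Cct2 (8.37%) and Cct6a (6.83%). In KO the order was Cct5 (23.2%), Cct8 (17.5%), Cct7 (14.2%), Cct3 (10.9%), Tcp1 (9.10%), Cct2 (8.80%), Cct4 (8.55%) and Cct6a (7.65%). The remaining 7 kept their order, and Cct4 was at place 3 in WT and 7 in KO with these lengths. Neighbours in each order did not overlap between their libraries, though Cct4 and Cct2 lay close in KO, at 8.47% and 8.63% against 8.75% and 8.84%. Set against the mean of the other 7 on the same scale, Cct4 was at 1.16 and 1.19 times that mean in WT and at 0.648 and 0.661 times in KO. The level per kilobase rests on the length chosen, which for Cct4 is 1966 bases in RefSeq and 2484 bases for the principal transcript of GENCODE M21. With the principal transcripts, an alternative chosen after seeing the data (Cct6a kept its RefSeq length, having no such entry), Cct4 was at 90.4% and 93.0% of the mean of the other 7 in WT and at 50.6% and 51.7% in KO. Its mean share was then 11.6% in WT against 6.81% in KO, or place 4 against place 8. The lower share in KO was found with either length, whereas the place of Cct4 among the subunits, and its side of the mean in WT, differed between them. These are transcript levels, and no protein was measured.

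Relatives of the subunits were at or near 0 or low in these cells. Cct6b, a testis-restricted copy of Cct6a, had estimated counts of 5 and 3 in KO but 0 and 1 in WT, and Cct8l1, a copy of Cct8, had 0 in each library. Both were too low to be tested. Mkks, Bbs10 and Bbs12, the chaperonin-like genes of Bardet-Biedl syndrome whose products work with CCT, were low, Mkks with a mean of 13.2 CPM in KO. Mkks and Bbs12 did not pass the test, and Bbs10 had at most 10 estimated counts and was not tested.

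The actin clients changed in makeup while their summed level stayed nearly the same. Acta2 fell by 3.07 on the log2 scale (SE 0.030, adjusted p = 1.59e-32 by edgeR), to 11.9% of the WT level. Actb, the cytoplasmic β-actin, rose from 6538 and 6328 CPM in WT to 7815 and 7625 CPM in KO, a log2 fold change of 0.26. Actg1, the cytoplasmic γ-actin, rose from 1189 and 1186 CPM to 1559 and 1551 CPM, but 29.9% of its 100-base windows also occur in other genes and its value is uncertain. Acta1 and Actg2, the skeletal and enteric muscle actins, rose by 1.37 and 2.04 from far lower levels of 87.5 and 94.0 CPM and 16.8 and 15.7 CPM. Of 6 actins 4 rose, 1 fell and the cardiac Actc1 was too low to be tested, beside 18.3% higher and 17.4% lower among all tested genes. With an assumed BCV of 0.1 or 0.2 the calls of Actb and Actg1 were lost.

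Summed over the 6 actins, the KO libraries held 9931 and 9745 CPM and the WT libraries 10018 and 9824 CPM. The genotypes overlapped, and the KO sum was 99.2% of the WT sum, a difference smaller than the spread between replicates. Per kilobase of the longest RefSeq mRNA, the KO sum was 105% of WT, a log2 ratio of 0.07 (5168 and 5070 CPM per kilobase in KO, 4933 and 4830 in WT). With the principal transcripts, in which Acta2 has 2035 bases in place of 2572, it was 101% of WT, so the size of this value rests on the length chosen. Acta2 made up 21.8% and 22.4% of the actin CPM in WT and 2.58% and 2.72% in KO. Without Acta2 the other 5 actins summed to 9675 and 9479 CPM in KO against 7831 and 7624 CPM in WT, or 124% of WT.

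The summed CCT transcripts were lower in KO, by a smaller factor than Cct4 itself. The 8 subunits summed to 3391 and 3378 CPM in KO and to 3789 and 3813 CPM in WT, so that KO held 89.0% of WT (log2 ratio -0.17). Without Cct4 the sums were 3130.2 and 3113 CPM in KO against 3298 and 3307 CPM in WT, or 94.5% of WT. In both sums the genotypes did not overlap. The ratio of the actin sum to the CCT sum was higher in both KO libraries, at 2.93 and 2.89 in CPM against 2.64 and 2.58 in WT. Per kilobase of the longest RefSeq mRNA it was 3.30 and 3.25 in KO against 2.80 and 2.73 in WT, and with the principal transcripts 3.34 and 3.30 against 2.99 and 2.91. No p is given for these sums, because their members were chosen with results of these data known. Beside them, the fibroblast markers summed to 71.9% of their WT level and the macrophage markers to 175%, and the part of this in the sums was not tested.

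**Figure D3:**
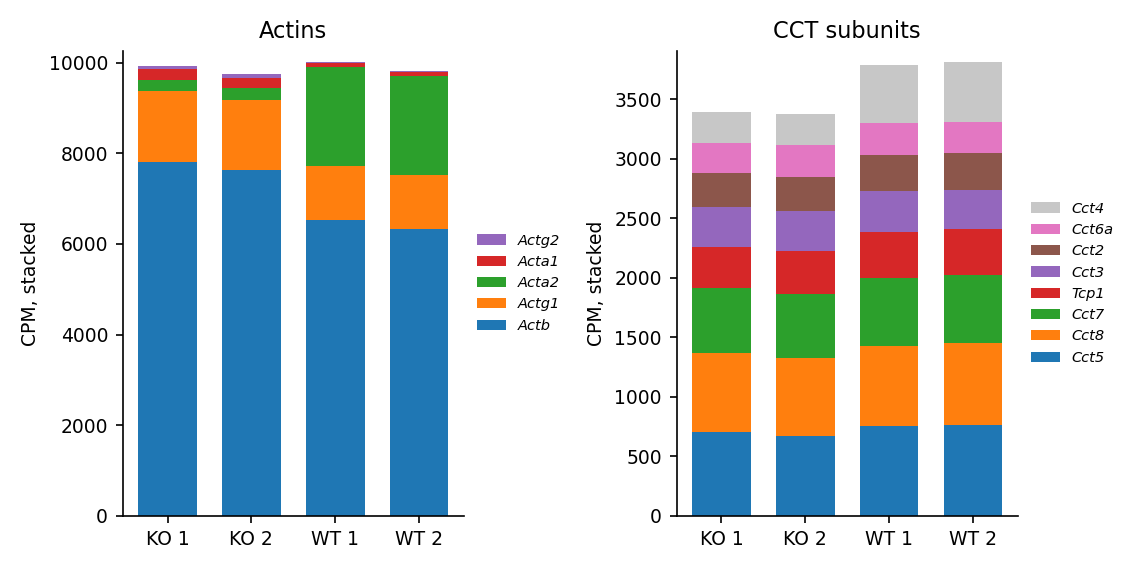
Stacked CPM (linear axes from 0) of 5 actins (left; Actc1, near 0, is left out) and of the 8 CCT subunits (right) in each RNA-seq library. The actin bars reach nearly the same height in all 4 libraries although the Acta2 layer shrinks from 21.8% and 22.4% of the sum in WT to 2.58% and 2.72% in KO, and the CCT bars are lower in KO with the Cct4 layer thinner.

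The promoters of the subunits were read from RefSeq (GRCm38.p6, the assembly also called mm10) as 250 bases before to 50 bases after each transcription start. An entry was found for 7 of the 8 members, not for Cct4, and of the actins not for Actb and Actg2. The following 4 members are shown as examples of the GC box together with the CCAAT box or the ETS motif. Capitals mark matches, on either strand, to the GC box GGGCGG bound by SP factors, the CCAAT box CCAAT bound by NF-Y, and the ETS motif CCGGAAGT. The windows lie at chr17:12916079-12916378 (plus strand) for Tcp1, chr5:129787106-129787405 (plus strand) for Cct6a, chr6:85451255-85451554 (plus strand) for Cct7 and chr16:87495820-87496119 (minus strand) for Cct8.
Tcp1: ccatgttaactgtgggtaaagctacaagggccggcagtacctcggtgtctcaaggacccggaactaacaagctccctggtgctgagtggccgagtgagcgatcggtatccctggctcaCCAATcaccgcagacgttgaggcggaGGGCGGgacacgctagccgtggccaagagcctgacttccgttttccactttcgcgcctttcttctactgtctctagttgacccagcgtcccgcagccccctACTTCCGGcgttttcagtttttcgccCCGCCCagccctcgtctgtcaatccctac
Cct6a: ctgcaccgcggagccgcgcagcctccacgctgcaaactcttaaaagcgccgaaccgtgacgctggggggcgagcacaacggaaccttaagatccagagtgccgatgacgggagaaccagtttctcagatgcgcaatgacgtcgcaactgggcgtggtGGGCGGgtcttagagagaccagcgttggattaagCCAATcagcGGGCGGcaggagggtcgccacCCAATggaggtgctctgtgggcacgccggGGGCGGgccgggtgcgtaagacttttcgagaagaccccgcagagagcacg
Cct7: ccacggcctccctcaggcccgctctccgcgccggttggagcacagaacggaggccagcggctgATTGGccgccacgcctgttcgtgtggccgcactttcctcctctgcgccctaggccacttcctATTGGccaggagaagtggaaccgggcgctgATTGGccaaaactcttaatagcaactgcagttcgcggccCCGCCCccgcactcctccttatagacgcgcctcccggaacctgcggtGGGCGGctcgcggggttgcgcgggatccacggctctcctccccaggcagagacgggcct
Cct8: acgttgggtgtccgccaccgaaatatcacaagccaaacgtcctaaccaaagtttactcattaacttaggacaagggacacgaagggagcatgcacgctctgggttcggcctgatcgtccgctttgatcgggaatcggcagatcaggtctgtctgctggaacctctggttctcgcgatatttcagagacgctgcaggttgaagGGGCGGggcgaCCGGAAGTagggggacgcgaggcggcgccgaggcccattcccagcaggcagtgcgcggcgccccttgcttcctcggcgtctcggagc

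The promoter of Acta1, at chr8:123894726-123895025 on the minus strand, is shown for contrast, since it carries the CArG box, the site of the serum response factor that drives muscle actin genes. Capitals mark its CArG box and its GC boxes.
Acta1: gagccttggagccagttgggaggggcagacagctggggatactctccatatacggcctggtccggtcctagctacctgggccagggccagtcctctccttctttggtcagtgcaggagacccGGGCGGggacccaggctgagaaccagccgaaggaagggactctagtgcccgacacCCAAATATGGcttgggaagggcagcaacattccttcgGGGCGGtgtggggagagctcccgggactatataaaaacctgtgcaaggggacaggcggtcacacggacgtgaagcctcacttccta

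A GC box was found in each of the 7 members with an entry, against 35.7% of all 32851 promoters of the table. The GC content of the member windows ran from 47.3% to 67.7%, against a median of 52.7% over all promoters. All member windows except the first of Cct5 were above that median, and the part of GC content in these matches was not tested. A CCAAT box occurred in 4 of the 7 (Tcp1, Cct3, Cct6a and Cct7), against 37.4% of all promoters. Tcp1 and Cct8 carried the ETS motif, beginning 5 and 37 bases before the start, against 3.89%. The NRF1 motif occurred in Cct5, against 0.971%, and the heat shock element GAANNTTC at the second listed start of Cct2, against 7.86%. The E-box CACGTG and the cyclic AMP element TGACGTCA occurred in none of the 7. A CArG box was found in Acta1, Actg1 and Actc1 and in none of the 7 subunits, against 1.63% of all promoters. The window of Acta2, searched in the same way, held no exact match to it either, so these letters do not divide all actins from the subunits. The motifs did not overlap one another in the windows shown. A member was counted with a match at any of its listed starts, while the shares over all promoters count each promoter. Cct2 and Cct5 have a second listed start, and that of Cct5 held none of the motifs. A match describes letters in a window and was not tested as a binding site.

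Open chromatin covered the promoter of every subunit in both genotypes. A peak overlapped the start site, taken from GENCODE with 500 bases on each side, in 8 of 8 subunits in KO and in WT, against 91.5% of tested genes with a peak in both lists. At Cct4 (ENSMUSG00000007739, plus strand, chr11:22990519-23003780), the peak reached from 22989967 to 22991816 in KO and from 22990053 to 22992111 in WT. Its fold enrichment over the library's own background, as the authors' peak caller gave it, was 26.8 in KO and 23.4 in WT. These 2 folds are each on the scale of their own library, and a link between the peak and the transcript level of Cct4 was not tested. With 1 library per genotype there is no replicate check and no test. The ratio of the KO fold to the WT fold was 1.14 at Cct4, close to the median of 1.13 over the tested genes with a peak in both lists, which ran from 0.818 at the 5th percentile to 1.54 at the 95th.

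The other subunits had peaks of a like height. In KO and WT in this order, the folds were 34.0 and 30.8 at Tcp1, 35.7 and 25.1 at Cct6a, 32.7 and 25.9 at Cct3, 31.9 and 21.4 at Cct2, 29.3 and 27.1 at Cct7, 23.4 and 17.7 at Cct8 and 22.1 and 20.1 at Cct5. Beside a median of 21.3 in KO and 18.9 in WT over all promoter peaks of tested genes, each subunit was above the median except Cct8 in WT. The KO fold was the higher of the pair at all 8, as it was at the median promoter, and the ratio was highest at Cct2 (1.49) and lowest at Cct7 (1.08). Folds in the 2 lists are each on the scale of their own library. The promoter windows printed above for Tcp1, Cct6a, Cct7 and Cct8 lie wholly inside the peaks of both genotypes.

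**Figure D4:**
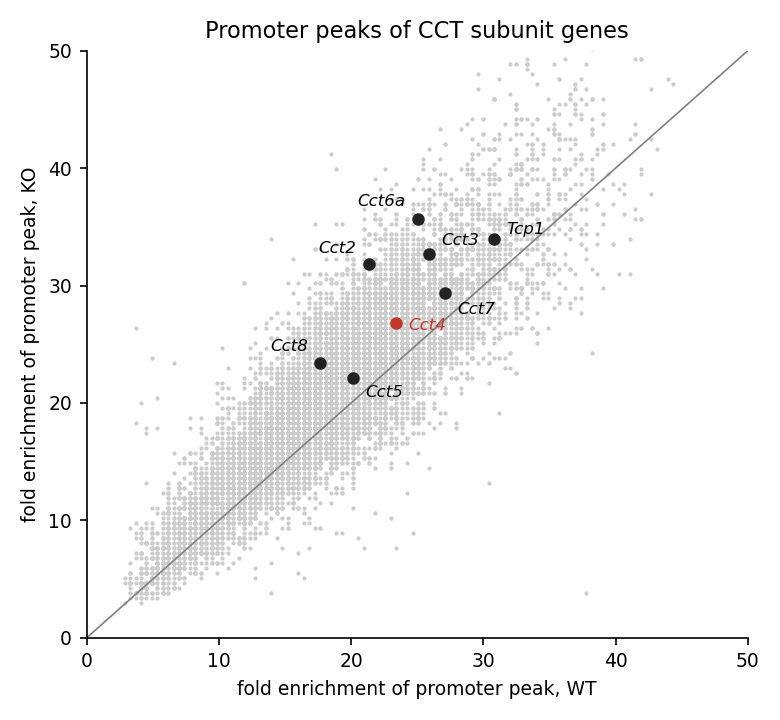
Fold enrichment of the promoter peak in WT (x) and KO (y) for the 8 CCT subunits (Cct4 in red, the others in black) and other tested genes with a peak in both libraries (grey), on linear axes up to 50 fold; 20 genes beyond that range are not shown. The line marks equal folds, and the subunits, Cct4 (23.4 in WT, 26.8 in KO) included, lie above it.

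The surroundings of Cct4 were examined next. No other gene starts head to head with it within 1000 bases or overlaps its exons on the opposite strand, and none of its 4552 windows of 100 bases has an exact match in another annotated gene of GENCODE M21. Within 1 Mb of its start, 3 of 15 other tested genes (20.0%) changed, against 35.7% of all tested genes. The median log2 fold change of the 15 was -0.15, against 0.0014 over all tested genes. Several of the 15 were weakly expressed, which makes a call less likely. Among these was Tmem17 (-0.61, adjusted p = 0.072 by edgeR), with at most 5.40 CPM in any library. The 3 called genes were chosen after their values were seen. Zrsr1, a splicing factor gene inside Commd1 whose start lies at -18.5 kb from that of Cct4, fell from 31.3 and 31.2 CPM in WT to 13.8 and 13.4 CPM in KO (log2 fold change -1.20, SE 0.12, adjusted p = 3.28e-09 by edgeR). It was the only called gene of the 15 with a fall beyond that of Cct4. Usp34, a deubiquitinase gene, fell by 0.35, and Gm28048 rose by 0.53, although 96.3% of its windows occur in B3gnt2 or Commd1 and its value is uncertain. Commd1 itself, which starts at -8.14 kb from Cct4, did not pass (-0.13, adjusted p = 0.115 by edgeR), nor did Fam161a on the other side (-0.60, adjusted p = 0.144), which had at most 6.00 CPM in any library. With DESeq2 the calls of Gm28048 and Usp34 were lost. Within 1 Mb of the other subunits, between 12.5% and 44.4% of tested genes changed.

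**Figure D5:**
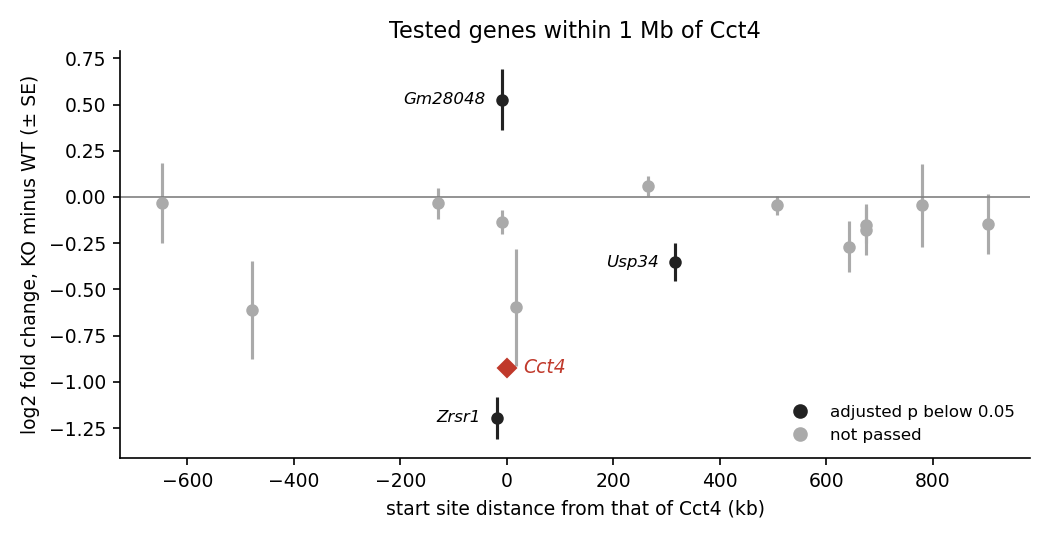
Log2 fold change (KO minus WT, ± SE) of the 15 tested genes whose start lies within 1 Mb of that of Cct4, by distance from it in kb; black points passed the test, grey points did not, and the red diamond is Cct4. Zrsr1 (-1.20) lies next to Cct4 (-0.92), and the other genes lie between -0.61 (Tmem17) and 0.53 (Gm28048).

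Peaks around Cct4 were alike in both lists. Within the 20 kb upstream of its start, each list held a pair of peaks near the start of Zrsr1 (folds 11.1 and 8.08 in KO, 9.45 and 7.80 in WT) and a strong peak near the start of Commd1 (20.4 in KO, 22.6 in WT). Downstream of the gene, a peak near the start of Fam161a had folds of 21.3 in KO and 20.1 in WT. A small peak with a fold of 4.93 at -9.88 kb was listed in WT alone, and one with a fold of 5.53 at 29.9 kb in KO alone. The depth of the ATAC-seq libraries is not given in the sources used here.

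Several subunits share their start region with a neighbour, and the library kit is not stated to keep strand. Mrpl18, a mitochondrial ribosomal gene that starts 644 bases from Tcp1 and overlaps its exons by 141 bases, rose by 0.18 (adjusted p = 0.00621 by edgeR) while Tcp1 fell. Psph, of serine synthesis, starts 451 bases from Cct6a and fell by 0.33 (adjusted p = 0.0024), while Cct6a did not pass. Pradc1, 456 bases from Cct7, rose by 0.47 (adjusted p = 0.0244). In none of these 3 pairs did both genes pass the test in the same direction. Usp16, which overlaps Cct8 by 192 bases, fell by 0.16 (adjusted p = 0.0409), and Fam173b and Tsacc, which start 48 and 117 bases from Cct5 and Cct3, did not pass. Acat3 overlaps Tcp1 by 571 bases and had under 1 CPM in each library. Windows shared with other genes made up 10.2% of Tcp1, 10.0% of Cct6a, 2.61% of Cct8 and 1.68% of Cct7, and none of Cct2, Cct3 and Cct5. The calls of Mrpl18, Psph, Pradc1 and Usp16 were lost with DESeq2.

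The proteins that pass chains to CCT were examined next. Of the 6 prefoldin subunits 2 fell and none rose, and 2 of 6 called is near the 35.7% called among all tested genes. Vbp1, the third prefoldin subunit, stood at 59.0 and 61.1 CPM in KO against 71.5 and 71.3 CPM in WT (log2 fold change -0.25, SE 0.066, adjusted p = 0.00377 by edgeR), and Pfdn5 at 98.3 and 90.1 CPM against 109.7 and 109 CPM (-0.21). Both genes were lower in both KO libraries, and both calls were lost with DESeq2. The summed prefoldin transcripts overlapped between genotypes, at 689 and 676 CPM in KO against 735 and 688 CPM in WT. Of 3 genes of the prefoldin-like complex, Uri1, its scaffold, fell by 0.34 and the other 2 did not pass. Among the phosducin-like cofactors, Pdcl3 rose from 235 and 231 CPM in WT to 265 and 263 CPM in KO (0.18, adjusted p = 0.00139 by edgeR). Txndc9 stood between 329 and 331 CPM in each library, with a log2 fold change of -0.0051, Pdcl did not pass, and Pdcl2 had no counts.

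Tubulin transcripts, the other main clients, moved in both directions and kept their sum. Of 13 genes 5 rose and 4 fell, beside 18.3% and 17.4% of all tested genes. Several of the 13 are strongly expressed, and among tested genes with a WT mean of at least 200 CPM, 20.5% rose and 41.9% fell. The sum was 4039 and 3945 CPM in KO against 4024 and 3980 CPM in WT (99.7% of WT). The clearest fall was that of Tubb3, a β-tubulin best known from neurons, from 162 and 155 CPM in WT to 92.7 and 90.2 CPM in KO (log2 fold change -0.79, SE 0.052, adjusted p = 1.26e-12 by edgeR). Tubb2a, Tubb5 and Tuba1a fell by 0.29, 0.12 and 0.12. Tuba4a, Tubb4b, Tubb6 and Tuba1b rose by 0.40, 0.29, 0.13 and 0.12, and Tuba8 rose by 1.15 on at most 41 estimated counts. Several of these genes are near copies of one another: 65.8% of the windows of Tuba1a, 65.2% of Tuba1b, 36.9% of Tubb2a and 22.0% of Tubb4b occur in other genes. So do 32.4% of the windows of Tuba4a, which are shared with Stk16, and 12.5% of those of Tuba8. Their single values are therefore uncertain, and those of Tubb3 are not affected by such sharing. Of 6 tubulin cofactor genes, which take tubulin over after CCT, Tbce rose by 0.35, Tbcb and Arl2 fell by 0.35 and 0.22, and 3 did not pass. That is 1 of 6 higher and 2 of 6 lower, beside the same 18.3% and 17.4% of all tested genes.

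Among 16 genes of other CCT clients 3 rose, 1 fell and 12 did not pass. Of all tested genes 18.3% rose and 17.4% fell, so the count of 3 in 16 that rose is near that share. The rise was largest for Actr2, the actin-related subunit of the Arp2/3 complex that branches filaments, which went from 260.5 and 258 CPM in WT to 463 and 476 CPM in KO (log2 fold change 0.86, SE 0.038, adjusted p = 1.92e-16 by edgeR). Both KO libraries were far above both WT libraries. Gnb2, a G protein β subunit whose propeller fold CCT makes, rose by 0.28, and the filament-severing gelsolin gene Gsn by 0.11. Stat3, a transcription factor, fell by 0.27. Actr3, the partner of Actr2 in the same complex, stood at 429 and 437 CPM in KO against 429 and 434 CPM in WT. It did not pass the test, and 11.3% of its windows occur in other genes. The difference between the 2 genes was not tested.

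The cytosolic chaperones that share clients with CCT moved both ways. Of 22 genes 6 rose and 6 fell, with a median log2 fold change of -0.03, beside 18.3% and 17.4% of all tested genes. Most of the 22 had a WT mean of at least 200 CPM, and among all tested genes at that level 20.5% rose and 41.9% fell. Hspa1a, the inducible HSP70, rose from 70.2 and 67.6 CPM in WT to 99.1 and 101 CPM in KO (0.54, adjusted p = 3.03e-08 by edgeR), but 56.5% of its windows also occur in other genes, among them its copy Hspa1b. Hspa4l, an exchange factor of HSP70, rose by 0.34, and Bag3, a cochaperone of filament proteins, by 0.30. St13, which links HSP70 and HSP90, fell by 0.30, and Cdc37, which brings kinases to HSP90, and Hsp90ab1, the constitutive HSP90, fell by 0.12 each. In this group no called gene moved as far as Cct4.

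Of 10 genes of transcription factors named for CCT or actin genes, 2 rose and none fell. A count of 2 in 10 that rose is near the 18.3% of all tested genes that did, while 17.4% of all tested genes fell. Srf, the serum response factor, went from 3.24 and 4.31 CPM in WT to 8.24 and 9.31 CPM in KO (log2 fold change 1.21, SE 0.22, adjusted p = 7.64e-05 by edgeR), on at most 102 estimated counts. Nrf1, whose motif occurs in the promoter of Cct5, rose from 45.7 and 45.0 CPM to 61.6 and 60.7 CPM (0.43). Hsf1, the heat shock factor, and Myc, a driver of ribosome and chaperone genes, did not pass.

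Finally, the genes whose pattern over the 4 libraries was most like the mean of the 8 subunits were sought by the smallest Euclidean distance between deviations of log2(CPM + 0.1) from the gene's mean, among 9979 genes whose mean log2 CPM was 2 or more. The mean subunit deviation was -0.09 in both KO libraries and 0.09 in both WT libraries. This mean was drawn by Cct4, whose log2 fold change was -0.92, while the other 7 had a median of -0.08 and the lowest stood at -0.13. The 5 nearest genes were Cers4, a ceramide synthase (distance 0.0106), Dtd2, a deacylase of mischarged tRNAs (0.0124), Ube2j1, an ubiquitin-conjugating enzyme of the endoplasmic reticulum (0.0125), Cep120, a centriole protein (0.0125), and Sec13, a coat protein of transport vesicles (0.0125). Of these, Ube2j1 (153 and 153 CPM in KO, 173 and 174 CPM in WT) and Sec13 (333 and 332 CPM in KO, 375 and 378 CPM in WT) fell by 0.18 each, and the other 3 did not pass. With 4 libraries in 2 groups, this measure says little more than that such genes were slightly lower in KO.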

How the data were processed

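The members and all gene lists were chosen with earlier results of these data known. RNA-seq values are the authors' deposited estimated counts per gene for 4 libraries. Per the submitters' processing notes, reads were trimmed with Trim Galore 0.6, checked with FastQC and mapped by STAR 2.5.3a on mm10. Which program and annotation gave the counts is not given in the sources used here. Whole counts had been assumed when the test was planned. Between 10.8% and 12.2% of values were not whole, so they were rounded and the planned test was kept. Estimated counts divide ambiguous reads among genes by a model, which is why windows of 100 bases shared with other genes are given.

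ATAC-seq values come from peak lists that the authors deposited. Alignment used Bowtie2 2.3 on mm10, per the labels' protocols, with unique alignments kept, duplicates and mitochondrial alignments removed, and peaks called per library with MACS2. Each deposited peak has an integer score, a fold enrichment (its ratio to background in that library) and −log10 p and q-values. KO had 121748 peaks and WT 123935, and the smallest deposited −log10 q-values were 1.86 and 1.70. Whether insertion sites were shifted is not stated.

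The gene test was edgeR 4.0.16 under R 4.3.3, with filterByExpr, TMM factors and a quasi-likelihood fit of genotype. Values of p were adjusted over 12192 genes by Benjamini-Hochberg, with a threshold of 0.05. Each SE was derived from the fold change and its F statistic. The test was checked on simulated counts. Alternatives used DESeq2 1.42.0, limma 3.58.1, other scalings, no filter, an assumed BCV of 0.1 or 0.2, a replicate block and each library left out. Between replicates the chi-square per degree of freedom exceeded sampling noise (1.99 for KO, 1.77 for WT), so none was merged. Coordinates follow the deposited table: 25635 of 25746 genes were found in GENCODE M21, 25471 with identical positions. Lengths come from the longest RefSeq mRNA.

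The naming rule took the 8 subunits, the 6 actins, neighbours of the subunits and the 5 nearest patterns. Of every other list it took the called genes with the 3 largest changes per direction. For the cell type marker lists, the text names only part of these genes and otherwise gives counts and sums. Further list members, partners that did not pass, the paralogs and the genes around Cct4 were named after their values were seen.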

Additional observations from a re-analysis of the deposited data

How the results depend on the processing

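Across 13 alternatives, Cct4 kept its call, and none of the 74 called genes that the naming rule took changed direction. The number of genes called was 4352, and it moved to 2058 with DESeq2, 1780 with an assumed BCV of 0.1 and 398 with 0.2. Leaving out a library gave 3392 to 3674 calls. The 4 CCT subunits called lower became 1 with either assumed BCV and 2 to 3 with a library left out (2 without KO replicate 1 and 2 without WT replicate 1). The listed partners called higher went from 25 to 8 and 4 with a BCV of 0.1 and 0.2, and those called lower from 27 to 16 with DESeq2 and to 5 and 2 with these BCVs. The log2 ratio of the CCT sums, -0.17, was -0.15 with library size as the only scaling, -0.18 per kilobase of the longest RefSeq mRNA, -0.16 with principal transcripts (added after seeing the data) and -0.18 to -0.16 with a library left out. The log2 ratio of the actin sums was -0.012, and 0.069 and 0.013 per kilobase with these lengths. Of the 74 genes that the rule took, 23 lost the call with DESeq2, and 40 and 57 with a BCV of 0.1 and 0.2. The replicate number as a block gave 4408 calls and 5 subunits, with Cct7 gained. Same-numbered libraries did not deviate together (correlation 0.0004), so the numbers were not treated as pairs. Promoter peaks were found at 8 of 8 subunits with start windows of 100 and 2000 bases, with a −log10 q of at least 10 and with reciprocal overlap. For ATAC-seq, 1 library per genotype sets the limit.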

Other observations

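Chaperone genes of other compartments moved in both directions. Of 11 chaperone genes of the endoplasmic reticulum 1 rose and 4 fell, beside 18.3% and 17.4% of all tested genes. Most of the 11 are strongly expressed, and among tested genes with a WT mean of at least 200 CPM, 20.5% rose and 41.9% fell. The 1 that rose was Serpinh1, the collagen chaperone HSP47, from 1946 and 1930 CPM in WT to 4637 and 4493 CPM in KO (log2 fold change 1.24, SE 0.021, adjusted p = 2.38e-26 by edgeR). Its call held with a BCV of 0.2. The transcripts of Col1a1 and Col3a1, whose products it binds, fell by 0.15 and 0.52 in the same libraries. Hsp90b1, the HSP90 of this compartment, and Canx, the lectin chaperone calnexin, fell by 0.26 and 0.21. The disulfide isomerase genes Pdia3 and Pdia4 fell by 0.06 and 0.14, and the call of Pdia4 was lost with DESeq2 and without any 1 library. The mitochondrial chaperonin, a ring machine related to CCT, showed a fall of its lid gene Hspe1 (0.14 on the log2 scale), while its barrel gene Hspd1 and the mitochondrial HSP70 gene Hspa9 did not pass.

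Of 12 proliferation genes 2 rose and 5 fell, beside 18.3% and 17.4% of all tested genes. Their sum overlapped between genotypes, at 353 and 360.2 CPM in KO against 343 and 377 CPM in WT. Bub1, of the spindle checkpoint, Ccnb2 and Ccnb1, the mitotic cyclins, fell by 1.47, 0.83 and 0.61 (14.9% of the windows of Ccnb1 occur in other genes), Bub1 on at most 36 estimated counts. Rrm2 and Mcm3, genes of DNA synthesis, rose by 0.25 and 0.24. The call of Mcm3 was lost with DESeq2, and that of Ccnb1 with an assumed BCV of 0.2.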
